A study of Mus musculus with 15 samples.

Results

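RNA from aortic valve leaflets of mice that carried both genetic changes of the study was compared with RNA from mice that carried neither. The group with both changes was heterozygous for Notch1 and was a second-generation (generation 2) Terc null with shortened telomeres, labelled N1het_TercG2. The group with neither change was wild type for Notch1 and for Terc, with long telomeres, labelled N1WT_TercWT. All mice were C57BL/6 and 2 months old. Each group held 4 libraries, 8 of the 15 in the series, and each library came from the 3 leaflets of 1 mouse, freed with collagenase for 20 minutes at 37 °C. The remaining libraries, 4 from Notch1 heterozygotes with long telomeres (N1het_TercWT) and 3 from Notch1 wild types with short telomeres (N1WT_TercG2), are quoted only as values beside the main pair. The comparison covered all 18073 genes of the table. It holds 1 pooled FPKM per gene and group, a fragment count scaled to transcript length and library size. The spread between mice and the depth of the libraries are therefore unknown, no value below carries an error, no test could be made, and each difference is a size only.

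NOTCH1 is a transmembrane receptor that is cut when a Jagged or Delta-like ligand of a neighbouring cell binds it, and its freed intracellular domain then drives genes such as those of the Hey and Hes families. Loss of 1 copy is known to cause bicuspid and calcifying aortic valves in people. Terc is the RNA that telomerase copies into telomere repeats, so that telomeres shorten over generations of mice without it. The 2 changes differ together between these groups, and what belongs to either alone cannot be told apart from this pair. The absence of Terc RNA and the shortness of telomeres cannot be told apart either. The Notch1 allele is not described in the labels, which name no Cre driver or transgene.

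Differences are given as log2(FPKM + 1) with both changes minus that with neither, a scale that understates changes of low genes. Pairs of FPKM values are in the order neither, both. Over all 18073 genes the median difference was -0.16, with 40.1% of genes higher and 58.2% lower with both changes. A difference of at least 1, called past 2-fold here, was reached by 7.48% of genes on the higher side and by 17.2% on the lower side. A difference of at least 2, called past 4-fold, was reached by 267 genes (1.48%) on the higher side and by 686 genes (3.8%) on the lower side. Of the genes past 2-fold 30.2% were on the higher side, and of those past 4-fold 28.02%. Measured from the median of all genes instead of from 0 these shares were 42.7% and 38.2%, and among genes with a mean of at least 10 FPKM 42.6% and 36.7%. Many of the genes past 4-fold were low, though a smaller share than of all genes. The 1 added to each FPKM keeps the lowest genes from passing 4-fold, so the smaller share follows in part from the scale. Of the 267 higher genes 108 (40.4%) never reached 10 FPKM in either group. Of the 686 lower genes 328 (47.8%) stayed under 10 FPKM, beside 57.2% of all genes. Protein-coding were 152 of the higher (56.9%) and 319 of the lower genes (46.5%), beside 81.9% of all genes. Of the lower genes 200 were listed at 0 with both changes, beside 1181 of all 18073 genes.

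The genes that define the groups were looked at first. Terc, entered in the table as Telomerase-vert (ENSMUSG00000064796), was listed at 0 with both changes and at 1.42 FPKM with neither. Notch1 (ENSMUSG00000026923) stood at 39.1 and 23.3 FPKM (log2 difference -0.72). That is a lower level with both changes, also relative to the median of all genes, by which it differed by -0.56. The 2 single-change groups stood at 25.1 FPKM (N1het_TercWT) and 16.6 FPKM (N1WT_TercG2), so that the Notch1 wild type group with short telomeres was listed below both heterozygous groups. The Notch1 level thus orders the groups against their Notch1 labels where telomeres are short.

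**Figure D1:**
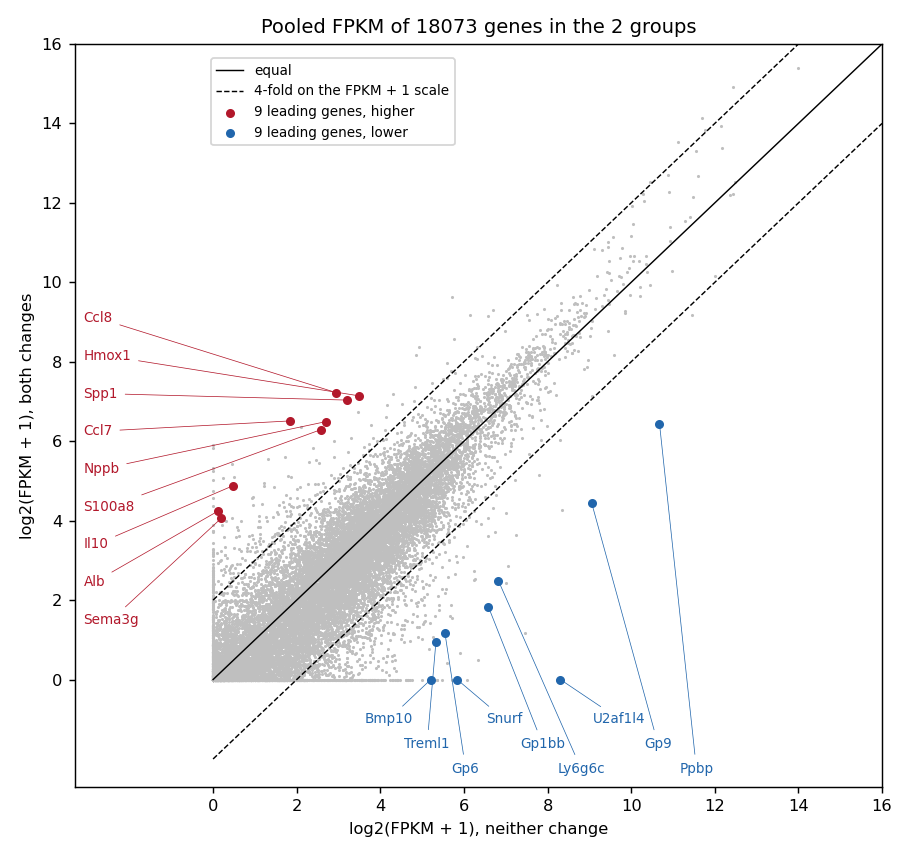
Each grey point is 1 of 18073 genes, with log2(FPKM + 1) in the group with neither change on the horizontal axis and in the group with both on the vertical axis. Dashed lines mark 4-fold. The 9 leading genes are named on each side. Those on the upper side include Ccl7 (4.66), Spp1 (3.84) and Hmox1 (3.64), and those on the lower side are led by genes listed at 0 and by platelet genes.

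With short RNAs set aside, monocyte chemokines and Il10 had the 3 highest differences. Ccl7, a chemokine that draws monocytes, stood at 2.61 and 90.2 FPKM (log2 difference 4.66). Il10, an anti-inflammatory cytokine, stood at 0.382 and 28.3 FPKM (log2 difference 4.41). Ccl8, a further monocyte chemokine, stood at 6.66 and 149 FPKM (log2 difference 4.29). Spp1, the secreted matrix phosphoprotein osteopontin that osteoblasts and macrophages make, stood at 8.18 and 130.2 FPKM (log2 difference 3.84). For Spp1, Ccl8 and Il10 the single-change groups were far below the level with both changes. Spp1 was at 8.35 and 8.63 FPKM in N1het_TercWT and N1WT_TercG2. Ccl8 was at 10.2 and 8.04 FPKM and Il10 at 2.36 and 0.690 FPKM in the same order.

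Hmox1 and Slc40a1 were also among the 12 highest. Hmox1, haem oxygenase 1, which breaks down haem, stood at 10.3 and 140.1 FPKM (log2 difference 3.64), with 26.4 and 13.9 FPKM in N1het_TercWT and N1WT_TercG2. Slc40a1, the iron exporter ferroportin, stood at 0.922 and 19.8 FPKM (log2 difference 3.44). A list of 26 haem and iron genes, written after these values were seen, held genes on both sides. Slc11a1, an iron transporter of macrophage phagosomes, stood at 1.58 and 9.23 FPKM (log2 difference 1.99), and Cd163, the receptor for haemoglobin bound to haptoglobin, at 1.40 and 5.48 FPKM (log2 difference 1.43). The ferritin chains, which store iron, differed little: Fth1 stood at 1955 and 2095 FPKM (log2 difference 0.10) and Ftl1 at 1938 and 2710.3 FPKM (log2 difference 0.48). On the lower side Aco1, an iron-regulatory aconitase, stood at 9.32 and 3.34 FPKM (log2 difference -1.25).

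The other leading genes on the higher side came from several tissues. Nppb, the B-type natriuretic peptide of stressed heart muscle, stood at 5.55 and 89.3 FPKM (log2 difference 3.79). Alb, the liver protein albumin, stood at 0.0777 and 17.8 FPKM (log2 difference 4.13). Sema3g, an endothelial semaphorin, stood at 0.141 and 15.6 FPKM (log2 difference 3.87). S100a8, a calprotectin subunit of neutrophils, was higher than the reference at 4.99 and 77.4 FPKM (log2 difference 3.71) but far below the 892 FPKM of N1WT_TercG2. Timp4, an inhibitor of metalloproteases found in heart and fat, stood at 0.921 and 22.6 FPKM (log2 difference 3.62). The rule for leading genes also took the short RNAs U1 and SCARNA4, which were set aside because FPKM measures such RNAs poorly, and the next genes were taken in their place.

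**Figure D2:**
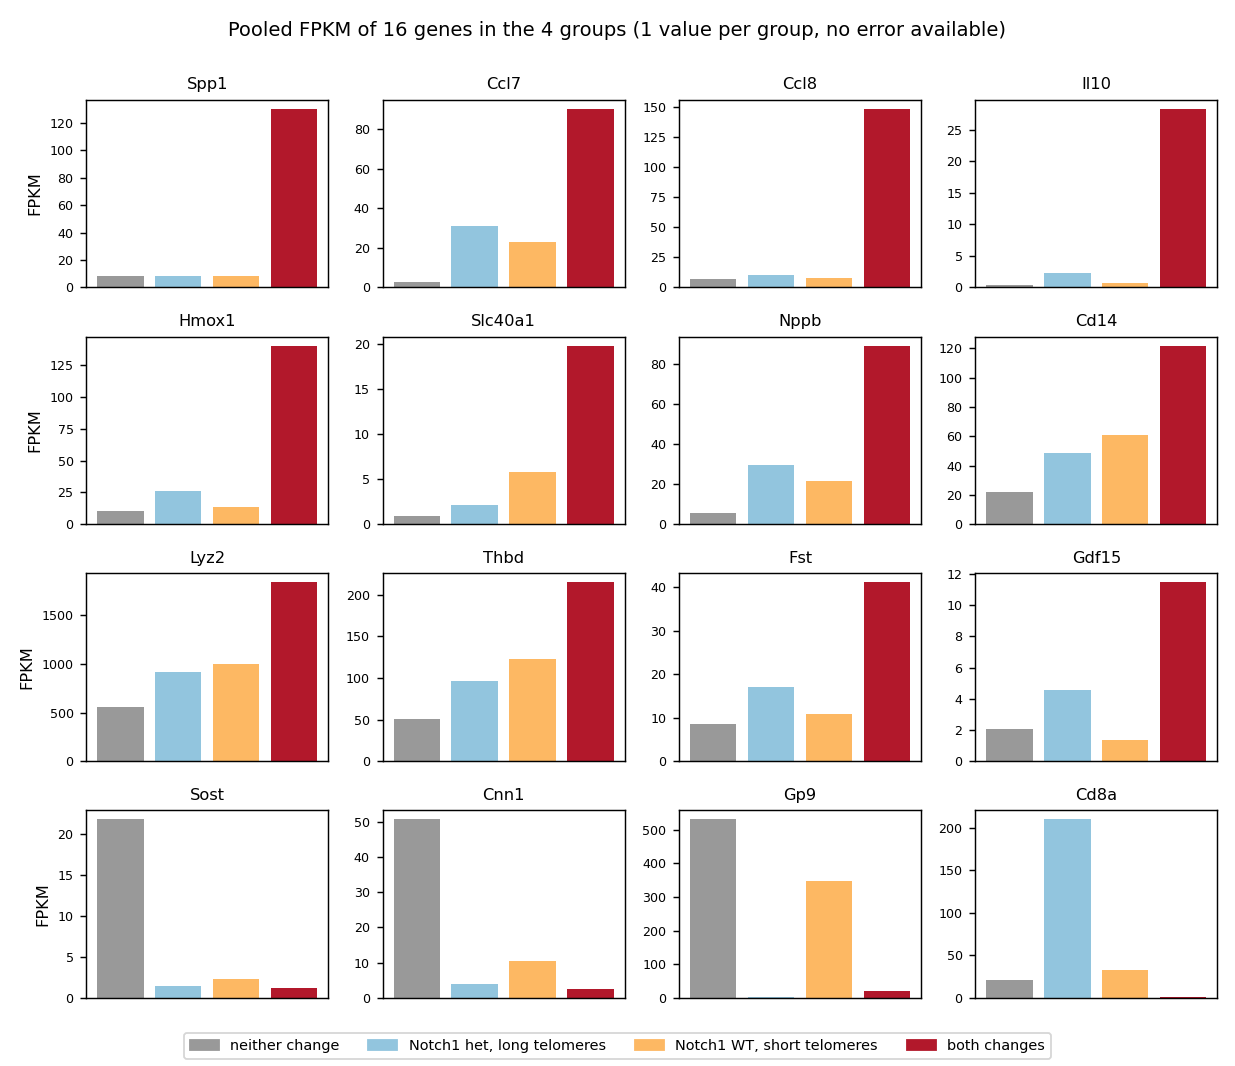
Bars give the pooled FPKM of 16 genes in the 4 groups, each panel with its own axis from 0. Spp1, Ccl8, Il10 and Hmox1 are highest with both changes and low in the other 3 groups, whereas Lyz2, Cd14 and Thbd have intermediate values with 1 change. Sost and Cnn1 are highest in the group with neither change.

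The inflammatory list as a whole was higher with both changes. Of its 24 cytokine, chemokine and NF-kappaB genes, 19 were higher, 16 past 2-fold and 7 past 4-fold, and 0 were past 2-fold lower. Over all genes these shares were 40.1%, 7.48%, 1.48% and 17.2%. The median difference was 1.37, against -0.16 for all genes. To show what these promoters hold, the 300 bases around the start of each list gene (250 before to 50 after, RefSeq, build GRCm38.p6) were searched on both strands for 3 motifs. The table held promoters for 18 of the 24 genes, and the motifs and the genes printed were chosen with the matches in view, after motifs of other factors had been looked at. The kappaB site GGAATTTCC (GGAAATTCC on the other strand), a binding motif of NF-kappaB, occurred in 5 of the 18 genes and in 0.317% of all 32851 promoters. A second kappaB spelling, GGACTTTCC, occurred in 2 of the 18, Csf1 and Nfkbia, and in 0.344% of all promoters. The AP-1 site TGAGTCA occurred in 5 of the 18 and in 5.20% of all. The 5 stretches with GGAATTTCC end before the start site and run 5′ to 3′ on the gene's strand, with the kappaB motif in capitals:
Cxcl1 (chr5:90891139-90891219, plus strand): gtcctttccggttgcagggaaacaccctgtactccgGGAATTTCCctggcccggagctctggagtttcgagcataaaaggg
Cxcl2 (chr5:90903767-90903847, plus strand): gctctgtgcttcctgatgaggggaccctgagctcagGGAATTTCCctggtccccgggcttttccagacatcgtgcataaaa
Cxcl10 (chr5:92349003-92349083, minus strand): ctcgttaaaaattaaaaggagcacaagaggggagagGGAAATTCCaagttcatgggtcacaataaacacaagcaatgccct
Nfkbia (chr12:55492648-55492712, minus strand): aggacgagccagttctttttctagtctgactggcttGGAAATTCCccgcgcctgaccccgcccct
Tnfaip3 (chr10:19015411-19015470, minus strand): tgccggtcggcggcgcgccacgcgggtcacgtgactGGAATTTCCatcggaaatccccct
The motif of Cxcl1 and Cxcl2 begins 70 and 96 bases before the start, that of Cxcl10 158, that of Nfkbia 29 and that of Tnfaip3 24. In Cxcl10 and Nfkbia it reads on the other strand. A match is a description of the letters and was not tied to binding of any factor.

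The 5 genes whose promoters are printed above were all higher with both changes, as were 19 of the 24 genes of the list. The 5 were chosen with the matches in view, and a link of motif and level was not tested. Csf1, which holds the second kappaB spelling, was lower, as given below. Cxcl1 and Cxcl2, neutrophil-attracting chemokines, stood at 27.4 and 164 FPKM (log2 difference 2.54) and at 78.9 and 333 FPKM (log2 difference 2.06). Cxcl10, an interferon-inducible chemokine that draws T cells, stood at 13.9 and 37.7 FPKM (log2 difference 1.38). Tnfaip3, which ends NF-kappaB signalling, stood at 10.9 and 27.9 FPKM (log2 difference 1.28), and Nfkbia, which holds NF-kappaB in the cytoplasm, at 27.5 and 50.3 FPKM (log2 difference 0.85). All 5 were also above the reference in both single-change groups, with Cxcl1 at 35.1 and 93.2 FPKM and Tnfaip3 at 60.5 and 22.9 FPKM in N1het_TercWT and N1WT_TercG2.

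Among the remaining inflammatory genes, Ccl2, the main monocyte chemokine, stood at 9.97 and 106 FPKM (log2 difference 3.29). Il1b, the cytokine interleukin 1 beta, stood at 31.2 and 100.4 FPKM (log2 difference 1.65), below the 165 FPKM of N1WT_TercG2. Il6 stood at 1.91 and 11.6 FPKM (log2 difference 2.11) and Cxcl9 at 1.31 and 10.2 FPKM (log2 difference 2.28). Tnf differed little, at 16.7 and 21.95 FPKM (log2 difference 0.38). The 5 lower genes were Il1a, Il18, Csf1, Relb and Nfkb1, of which Csf1, the growth factor of macrophages, was the lowest at 46.9 and 25.2 FPKM (log2 difference -0.87). The 20 interferon-stimulated genes gave no such shift, with a median of 0.17. Past 2-fold higher was 1 of them (Cxcl10, 5%), beside 7.48% of all genes. Past 2-fold lower were 2 (Ifit3 and Mx2, 10%), beside 17.2% of all genes.

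Macrophage markers were higher with both changes. Of 20 markers 17 were higher and 10 past 2-fold, beside 40.1% and 7.48% of all genes. None was past 2-fold lower, beside 17.2% of all genes, and the median of the markers was 0.88. Fewer or more cells of a type and less or more RNA per cell cannot be told apart in such bulk samples. Cd68, a lysosomal protein of macrophages, stood at 73.9 and 182 FPKM (log2 difference 1.29). Adgre1, the surface protein F4/80, stood at 17.8 and 41.3 FPKM (log2 difference 1.17). Cd14, the co-receptor for bacterial lipopolysaccharide, stood at 22.04 and 122 FPKM (log2 difference 2.41), and Lyz2, the lysozyme of myeloid cells, at 554 and 1839 FPKM (log2 difference 1.73). The 3 lower markers were Cx3cr1, Csf1r and Gpnmb, of which Cx3cr1, a chemokine receptor of resident cells, differed most, at 18.4 and 14.6 FPKM (log2 difference -0.32). Csf1r, the receptor for Csf1, stood at 47.8 and 41.6 FPKM (log2 difference -0.20). The mean log2(FPKM + 1) of the list was 4.52 with neither change, 4.75 and 4.63 with 1, and 5.39 with both. Its summed FPKM was 1253 with neither and 3112 with both. The part of macrophage number in the levels of Spp1, Hmox1 and the chemokines was not tested. The 12 genes of class II and dendritic cells had a median of -0.25, and H2-Aa, which presents antigen, stood at 702 and 746 FPKM (log2 difference 0.09).

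Valve calcification was examined through osteoblast genes, inhibitors of mineral and cartilage genes. None of the 3 lists had a median far from 0. Of 20 osteoblast-associated genes 15 were measured, 7 higher and 8 lower, with a median of -0.07 that turned to 0.09 relative to all genes. A few members stood far from the rest. Beside Spp1, Alpl, the phosphatase that frees phosphate for mineral, stood at 1.18 and 9.63 FPKM (log2 difference 2.28). Bglap2, an osteocalcin gene whose reads may be shared with its near-identical copy, stood at 0.227 and 5.51 FPKM (log2 difference 2.41). Bmp2, a bone morphogenetic ligand, stood at 15.4 and 42.5 FPKM (log2 difference 1.41), and Sparc, the matrix protein osteonectin, at 437 and 809 FPKM (log2 difference 0.89). On the lower side Runx2, the transcription factor that starts the osteoblast programme, stood at 3.45 and 1.70 FPKM (log2 difference -0.72). Pdpn and Col1a1, the main chain of bone collagen, were past 2-fold lower, Pdpn at 16.9 and 6.22 FPKM (log2 difference -1.31) and Col1a1 at 199 and 79.5 FPKM (log2 difference -1.31). For Alpl the single-change groups were between, at 3.35 FPKM in N1het_TercWT and 4.01 FPKM in N1WT_TercG2. Bmp2 was lower than the reference in N1WT_TercG2 at 7.15 FPKM. The osteoblast genes Sp7, Ibsp, Dmp1, Mepe and Bglap were not analysed here.

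The inhibitors of mineralisation also went both ways, 6 higher and 6 lower of 12 measured (median 0.05). The median was 0.21 relative to all genes and turned to -0.01 with the groups rescaled to equal sums over genes that are not mitochondrially encoded. Spp1, which also inhibits crystal growth, is one of them. Mgp, matrix Gla protein, the most abundant of them, stood at 2835 and 4568 FPKM (log2 difference 0.69). Fst, the activin and BMP antagonist follistatin, stood at 8.65 and 41.1 FPKM (log2 difference 2.13). Sost, the Wnt antagonist sclerostin, was the lowest at 21.9 and 1.19 FPKM (log2 difference -3.39), and both single-change groups were low as well, at 1.41 FPKM (N1het_TercWT) and 2.32 FPKM (N1WT_TercG2). Smad6, which blocks BMP signalling inside the cell and is known to be needed for normal valves, stood at 25.8 and 14.8 FPKM (log2 difference -0.76). The remaining members lay within 1 of equality, with Enpp1, which makes the mineral inhibitor pyrophosphate, at 11.6 and 14.1 FPKM (log2 difference 0.26) and Ank, which exports pyrophosphate, at 35.97 and 48.4 FPKM (log2 difference 0.42).

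Cartilage genes, which adult valves also express, had a median of -0.09 over 21 measured of 24, or 0.07 relative to all genes. The 3 most abundant members were close to equal. Comp, cartilage oligomeric matrix protein, stood at 95.1 and 89.4 FPKM (log2 difference -0.09), Chad, chondroadherin, at 159 and 167 FPKM (log2 difference 0.07), and Prg4, lubricin, at 252 and 279 FPKM (log2 difference 0.14). Others differed more, with 3 past 2-fold higher and 2 past 2-fold lower. The higher ones were Chadl, listed at 0 with neither change and at 4.02 FPKM with both, Col2a1, the main cartilage collagen, at 0.131 and 1.64 FPKM (log2 difference 1.22), and Col10a1, of hypertrophic cartilage, at 1.29 and 3.98 FPKM (log2 difference 1.12). Cilp2 and Col11a2 were past 4-fold lower, at 14.4 and 1.75 FPKM (log2 difference -2.49) and 10.9 and 1.11 FPKM (log2 difference -2.49). Sox9, the transcription factor of cartilage and valve mesenchyme, stood at 61.1 and 35.2 FPKM (log2 difference -0.78). Acan, the proteoglycan aggrecan, stood at 3.72 and 1.57 FPKM (log2 difference -0.88).

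Structural matrix genes were mostly lower with both changes. Of 18 collagen chains 14 were lower and 7 past 2-fold (median -0.77), and of 16 elastic fibre and microfibril genes 12 were lower and 8 past 2-fold (median -0.84). The share past 2-fold lower over all genes was 17.2%. Col6a3 and Col6a2, chains of the microfibrillar collagen VI, stood at 41.6 and 12.8 FPKM (log2 difference -1.63) and 67.3 and 25.2 FPKM (log2 difference -1.38). Col5a1, which regulates the width of collagen fibrils, stood at 54.2 and 18.8 FPKM (log2 difference -1.48). Mfap2 and Fbln1, proteins of microfibrils and elastic fibres, stood at 55.2 and 16.2 FPKM (log2 difference -1.71) and 167 and 67.03 FPKM (log2 difference -1.30). Elastin itself, Eln, stood at 39.3 and 28.5 FPKM (log2 difference -0.45).

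The 4 higher collagens were Col8a1, Col4a2, Col4a1 and Col5a3. Col4a1 and Col4a2, the main chains of basement membranes, stood at 41.3 and 72.03 FPKM (log2 difference 0.79) and 31.2 and 60.7 FPKM (log2 difference 0.94). Col8a1, made by endothelial and smooth muscle cells, was the 1 collagen past 4-fold higher, at 12.3 and 53.4 FPKM (log2 difference 2.03), whereas its partner chain Col8a2 stood at 2.998 and 1.80 FPKM (log2 difference -0.51). Col15a1 and Col18a1, also of basement membranes, stood at 50.4 and 29.6 FPKM (log2 difference -0.75) and 14.2 and 11.7 FPKM (log2 difference -0.26). Lox, which cross-links collagen and elastin, was the 1 elastic fibre gene past 2-fold higher, at 7.98 and 19.4 FPKM (log2 difference 1.19). The single-change groups were also below the reference for the lower collagens, with 105 and 61.3 FPKM for Col1a1 and 19.4 and 10.7 FPKM for Col6a3 in N1het_TercWT and N1WT_TercG2, respectively.

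**Figure D3:**
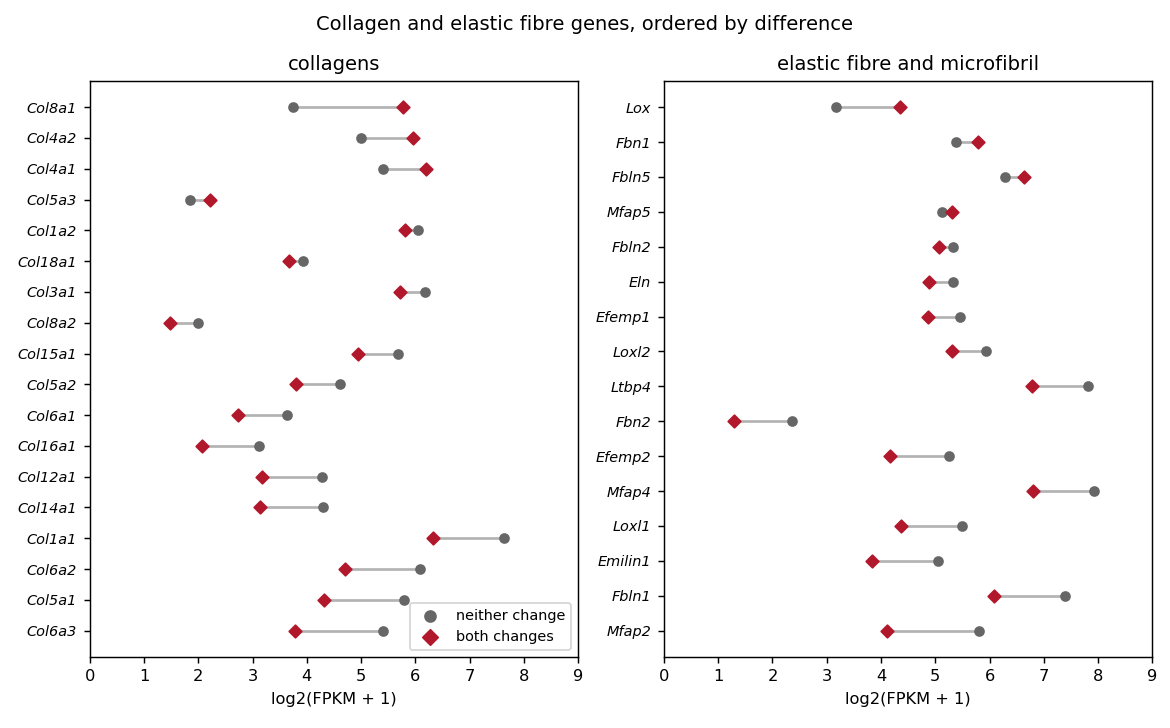
Each row is 1 gene, with log2(FPKM + 1) in the group with neither change (circle) and with both (diamond), ordered by their difference. Diamonds lie to the left for 14 of 18 collagens and 12 of 16 elastic fibre genes, and to the right for Col8a1, Col4a1, Col4a2 and Lox.

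The 15 proteoglycans measured had a median of -0.27. On each side 1 of them was past 2-fold, beside 7.48% higher and 17.2% lower of all genes. Podn was lower at 9.25 and 2.90 FPKM (log2 difference -1.40) and Aspn, asporin, higher at 13.9 and 32.4 FPKM (log2 difference 1.16). The median was 0.01 among proteoglycans with a mean of at least 10 FPKM. Dcn, decorin, the most abundant, stood at 2692 and 3188 FPKM (log2 difference 0.24), and Vcan, versican, the large proteoglycan of the valve spongiosa, at 189 and 99.97 FPKM (log2 difference -0.91). Matrix proteases and their inhibitors were more often higher, 12 of 19, beside 40.1% of all genes, with 6 past 2-fold higher and 0 past 2-fold lower. Mmp3, stromelysin 1, stood at 6.41 and 47.9 FPKM (log2 difference 2.72), Ctss, a cathepsin of macrophages, at 94.1 and 248 FPKM (log2 difference 1.39), and Adamts8 at 15.6 and 34.7 FPKM (log2 difference 1.11). Markers of interstitial cells and fibroblasts, the main cells of the valve, were well expressed in both groups and had a median of -0.24. Vim stood at 1339 and 1234 FPKM (log2 difference -0.12) and Pdgfra at 32.5 and 24.6 FPKM (log2 difference -0.39). Pdgfrb and Fap were past 2-fold lower, at 68.9 and 29.5 FPKM (log2 difference -1.19) and 5.39 and 1.22 FPKM (log2 difference -1.53).

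Genes of the Notch pathway were split. Of 18 receptors, ligands and modifiers 10 were higher and 8 lower, with a median of 0.04, which was 0.19 relative to all genes and turned to -0.03 with equal sums over genes that are not mitochondrially encoded. Among the receptors Notch2 stood at 42.98 and 14.5 FPKM (log2 difference -1.50) and Notch3 at 6.03 and 2.76 FPKM (log2 difference -0.90), whereas Notch4, an endothelial receptor, stood at 4.75 and 9.19 FPKM (log2 difference 0.82). Among the ligands Dll4 and Jag2 were past 2-fold higher, at 2.34 and 6.39 FPKM (log2 difference 1.15) and 1.68 and 4.85 FPKM (log2 difference 1.13), and Jag1 stood at 12.4 and 16.1 FPKM (log2 difference 0.35). Dtx1, the modifier deltex, was past 4-fold lower at 3.65 and 0.154 FPKM (log2 difference -2.01). Of 6 measured target genes 4 were lower, beside 58.2% of all genes. Heyl and Hes7 were the 2 past 2-fold lower, beside 17.2% of all genes, with the low gene Hes7 at 2.41 and 0.318 FPKM (log2 difference -1.37). Heyl stood at 28.2 and 8.06 FPKM (log2 difference -1.69), Hey1 at 23.05 and 18.6 FPKM (log2 difference -0.29), Hes1 at 34.03 and 32.5 FPKM (log2 difference -0.06) and Hey2 at 18.1 and 20.8 FPKM (log2 difference 0.19). Nrarp, a feedback inhibitor, was the 1 target past 2-fold higher, at 3.09 and 7.74 FPKM (log2 difference 1.10). For Heyl the single-change groups were at 13.9 FPKM (N1het_TercWT) and 26.5 FPKM (N1WT_TercG2).

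Related developmental pathways were looked at in the same way. Of 25 BMP and TGF-beta genes only Bmp2 (4%) was past 2-fold higher, beside 7.48% of all genes. None was past 2-fold lower, beside 17.2% of all genes. Id1 and Id3, immediate targets of BMP signalling, stood at 38.97 and 57.4 FPKM (log2 difference 0.55) and 119 and 178 FPKM (log2 difference 0.57). Of 22 Wnt pathway genes 6 (27.3%) were past 2-fold lower, beside 17.2% of all genes, and none past 2-fold higher. The lower ones included the pathway targets Axin2, at 23.7 and 8.33 FPKM (log2 difference -1.40), and Lef1, at 13.2 and 2.20 FPKM (log2 difference -2.15), which is also expressed in T cells and was highest in N1het_TercWT at 32.02 FPKM. Valve transcription factors were lower in 14 of 20 (median -0.52), beside 58.2% lower of all genes, and 1 of them was past 2-fold lower, beside 17.2% of all genes. It was Gata6, at 44.7 and 21.3 FPKM (log2 difference -1.03). Klf4, which responds to shear stress, was the 1 gene past 2-fold higher, at 52.3 and 125 FPKM (log2 difference 1.24). Among growth factors and receptors Igfbp5 and Igf2 were the lowest, at 229.8 and 63.9 FPKM (log2 difference -1.83) and 71.8 and 21.04 FPKM (log2 difference -1.72). Erbb2 and Egfr, receptors of the EGF and neuregulin family, stood at 12.98 and 4.06 FPKM (log2 difference -1.47) and 9.51 and 3.63 FPKM (log2 difference -1.18).

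Telomere genes other than Terc were lower in 12 of 17, beside 58.2% lower of all genes. The list of 18 had a median of -0.44 with 4 past 2-fold lower, Terc among them, a share near the 17.2% of all genes, and 1 past 2-fold higher. Pot1b, a shelterin protein that binds the telomere's single strand, stood at 8.98 and 2.47 FPKM (log2 difference -1.53). Terf2ip, the shelterin protein RAP1, stood at 10.4 and 3.88 FPKM (log2 difference -1.22), and Terf2, which shields chromosome ends, at 12.4 and 7.90 FPKM (log2 difference -0.59). Nop10, a protein of the telomerase particle that also serves ribosome assembly, was the gene past 2-fold higher, at 23.3 and 52.3 FPKM (log2 difference 1.13). Tert, the catalytic subunit, stood at 0.0360 and 0.211 FPKM (log2 difference 0.23). Only 3 of the 18 genes had a mean of at least 10 FPKM, and those 3 had a median of 0.53.

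Targets of p53, the factor that damaged telomeres are known to activate, were mostly higher. Of 20 targets 17 were higher, 6 past 2-fold, with a median of 0.86, beside 40.1% and 7.48% of all genes. The list's mean log2(FPKM + 1) was 3.78 with neither change and 4.44 with both. It was 4.29 in N1het_TercWT, with long telomeres, and 4.40 in N1WT_TercG2. Cdkn1a, which arrests the cell cycle, stood at 75.4 and 274 FPKM (log2 difference 1.85), close to the 280.3 FPKM of N1WT_TercG2 and above the 138 FPKM of N1het_TercWT. Gdf15, a stress cytokine, was past 4-fold higher at 2.03 and 11.5 FPKM (log2 difference 2.04). Plk2, Pmaip1, Perp and Fas were past 2-fold higher, with Fas, a death receptor, at 5.80 and 12.9 FPKM (log2 difference 1.03), below the 31.2 FPKM of N1WT_TercG2. The pro-apoptotic Bbc3 was the 1 target past 2-fold lower, at 3.46 and 0.507 FPKM (log2 difference -1.57). Trp53 itself stood at 35.6 and 20.7 FPKM (log2 difference -0.76), and the 20 genes of damage signalling and repair had a median of -0.23 with 1 past 2-fold, Chek2, at 1.85 and 8.16 FPKM (log2 difference 1.69). In the senescence list 15 of 20 were higher, 8 past 2-fold, of which Cxcl1, Cxcl2, Ccl2 and Il6 are inflammatory genes already described. Cdkn2a, the p16 gene that marks senescent cells, was low in both groups, at 0.0555 and 1.69 FPKM (log2 difference 1.35). Lmnb1, a nuclear lamin that senescent cells lose, stood at 6.39 and 1.26 FPKM (log2 difference -1.71). Its level was highest, 17.8 FPKM, in N1het_TercWT, where cell cycle and thymocyte genes were also highest. Cell cycle genes had a median of -0.23, with Mki67 at 19.5 and 11.5 FPKM (log2 difference -0.71).

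Immediate early genes, which respond within minutes to stress and to tissue dissociation, were higher in 18 of 20 (median 0.69, 7 past 2-fold). Over all genes 40.1% were higher and 7.48% past 2-fold higher. Atf3 stood at 27.05 and 129 FPKM (log2 difference 2.21), Fosb at 14.2 and 63.00 FPKM (log2 difference 2.07) and Fos at 53.98 and 211 FPKM (log2 difference 1.95). Fos and Fosb were higher still in N1WT_TercG2, at 295 and 117 FPKM. The p53 target Btg2 and the inflammatory gene Tnfaip3 are also induced by such stress, and the part of leaflet handling was not tested. Heat shock and unfolded protein genes were higher in 13 of 17 (median 0.53), with Hsph1, a chaperone of the HSP110 family, at 8.52 and 17.4 FPKM (log2 difference 0.95). Among 21 genes of oxidative defence only Hmox1 passed 4-fold, and Txnrd1, thioredoxin reductase, stood at 9.04 and 26.8 FPKM (log2 difference 1.47).

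Endothelial genes were higher with both changes. Of 20 markers 18 were higher, 9 past 2-fold and 4 past 4-fold, beside 40.1%, 7.48% and 1.48% of all genes. The median of the markers was 0.80. The pan-endothelial Pecam1 and Cdh5 stood at 96.1 and 146 FPKM (log2 difference 0.60) and 59.7 and 121 FPKM (log2 difference 1.01). Larger differences were seen for Cldn5, a tight junction protein, at 2.60 and 17.8 FPKM (log2 difference 2.39), Edn1, the vasoconstrictor endothelin 1, at 5.39 and 27.8 FPKM (log2 difference 2.17), and Thbd, the anticoagulant thrombomodulin, at 50.6 and 215 FPKM (log2 difference 2.07). Sox17, an arterial transcription factor, stood at 2.25 and 13.2 FPKM (log2 difference 2.13). Vwf, von Willebrand factor, which platelets and endothelium share, was the 1 marker past 2-fold lower, at 23.7 and 6.21 FPKM (log2 difference -1.77). It stood at 5.17 FPKM in N1het_TercWT and 24.2 FPKM in N1WT_TercG2, so it was low in both Notch1 heterozygous groups, as the platelet list was. The leukocyte adhesion molecules Icam1, Sele and Vcam1 stood at 15.6 and 43.9 FPKM (log2 difference 1.43), 10.3 and 26.9 FPKM (log2 difference 1.31) and 132 and 264 FPKM, and 7 of 9 adhesion genes were higher.

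Genes typical of capillary endothelium in muscle and fat stood out among the higher ones, and are given as examples chosen after their values were seen. Gpihbp1, which holds lipoprotein lipase on the capillary wall, stood at 4.26 and 55.6 FPKM (log2 difference 3.43). Cd36, a fatty acid transporter, stood at 52.97 and 381 FPKM (log2 difference 2.82), and Fabp4, a fatty acid carrier, at 103 and 626 FPKM (log2 difference 2.59). Rbp7 and Aplnr, the apelin receptor, stood at 2.45 and 34.01 FPKM (log2 difference 3.34) and 2.54 and 20.3 FPKM (log2 difference 2.59). N1WT_TercG2 was also high, with Cd36 at 351 and Gpihbp1 at 34.4 FPKM, and N1het_TercWT lay between, at 111 and 14.2 FPKM. Of the adipocyte list the same Cd36, Fabp4, Lpl, Pparg and Lipe were the 5 past 2-fold higher. The fat cell genes Adipoq and Plin1 were at or near 0, with Adipoq listed at 0 and Plin1 at 0.571 FPKM with both changes. Plin4, Cfd and Ucp1 were the 3 past 2-fold lower, with Plin4 at 16.8 and 5.05 FPKM (log2 difference -1.55).

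Heart muscle genes were present in both groups and somewhat higher with both changes. Of 22 cardiomyocyte genes 19 were higher and 5 past 2-fold, beside 40.1% and 7.48% of all genes. The median of the list was 0.44. Tnnt2, cardiac troponin T, stood at 1172 and 1489 FPKM (log2 difference 0.35), and Actc1, cardiac actin, at 758 and 2251 FPKM (log2 difference 1.57). The summed FPKM of the list was 5854 with neither change and 9717 with both. Acta1, the actin of skeletal muscle and of stressed heart muscle, stood at 36.7 and 176 FPKM (log2 difference 2.23). Atrial genes did not follow: Nppa and Sln stood at 352 and 413 FPKM (log2 difference 0.23) and 31.4 and 21.6 FPKM (log2 difference -0.52), and Myl7 at 216 and 129 FPKM (log2 difference -0.74). Bmp10, made by atrial muscle, was listed at 35.9 FPKM with neither change and at 0 with both. Nuclear genes of the respiratory chain were higher in 27 of 28, 4 past 2-fold, with a median of 0.58, and Atp5b, an ATP synthase subunit, stood at 212 and 589 FPKM (log2 difference 1.47). The parts of muscle in the capillary, natriuretic peptide and respiratory chain genes were not tested.

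Mitochondrially encoded transcripts showed a large shift in amount. They made up 14.4% of all FPKM with neither change and 34.98% with both. The share was 10.01% in N1het_TercWT and 32.5% in N1WT_TercG2, so both short-telomere groups were high and both long-telomere groups low. With neither change and with both, most of this FPKM came from 20 transfer and ribosomal RNA entries, which summed to 48387 and 154313. FPKM measures the short ones among them poorly. Of 13 mitochondrial protein genes 4 were measured, summing to 13254 and 52150 FPKM. All 4 were past 2-fold higher, with mt-Atp6, an ATP synthase subunit, at 2221 and 11898 FPKM (log2 difference 2.42) and mt-Nd3, of complex I, at 3487 and 14522 FPKM (log2 difference 2.06). The sum of all FPKM values differed between the groups, 427784 against 590290. Cytosolic ribosomal protein genes, a set taken by name, were higher in 77 of 84, beside 40.1% of all genes, mostly by little (median 0.37).

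Smooth muscle genes were lower with both changes. Of 15 genes 13 were lower, 11 past 2-fold and 6 past 4-fold, beside 58.2%, 17.2% and 3.8% of all genes. The median of the list was -1.38. Cnn1, calponin 1, which regulates contraction, stood at 50.7 and 2.66 FPKM (log2 difference -3.82). Lmod1, which nucleates actin filaments in smooth muscle, stood at 30.6 and 3.06 FPKM (log2 difference -2.96), and Myh11, the smooth muscle myosin, at 83.6 and 14.05 FPKM (log2 difference -2.49). Acta2, the actin of smooth muscle and activated myofibroblasts, differed less, at 494 and 231 FPKM (log2 difference -1.09). The 2 higher members, Des and Pln, are also expressed in heart muscle. The list's mean log2(FPKM + 1) was 6.13 with neither change and 4.58 with both. It was 4.13 in N1het_TercWT and 4.95 in N1WT_TercG2, so the reference was the highest of the 4. Mesothelial and epicardial genes went the same way, lower in 13 of 14 (median -1.30), with Upk3b at 23.96 and 1.76 FPKM (log2 difference -3.18) and Msln, mesothelin, at 10.5 and 0.690 FPKM (log2 difference -2.76). The part of these cells in the lower levels of collagen and elastic fibre genes was not tested.

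On the lower side 5 entries of short RNAs (5S_rRNA, Y_RNA and U6) were set aside in the same way. The 12 lowest single differences then included those of U2af1l4, a paralogue of a splicing factor subunit, Snurf, an imprinted gene, and Fmr1nb. They stood at 316, 56.2 and 15.3 FPKM with neither change and were listed at 0 with both. Beside them and Bmp10 the 12 were platelet genes and Ly6g6c, a surface protein of the Ly6 family, at 112 and 4.63 FPKM (log2 difference -4.33).

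Platelet genes were the lowest list. All 22 were lower, 20 past 2-fold and 17 past 4-fold, beside 58.2%, 17.2% and 3.8% of all genes. The median of the list was -3.01. Gp9, Gp1bb and Gp5, subunits of the receptor that binds platelets to von Willebrand factor, stood at 531 and 20.8 FPKM (log2 difference -4.61), 95.1 and 2.55 FPKM (log2 difference -4.76) and 15.4 and 0.187 FPKM (log2 difference -3.78). Ppbp, the platelet chemokine precursor, stood at 1636 and 85.9 FPKM (log2 difference -4.24). Pf4, platelet factor 4, differed less, at 773 and 287 FPKM (log2 difference -1.43). The list's mean log2(FPKM + 1) was 5.59 and 5.51 in the Notch1 wild type groups, and 1.85 and 2.58 in the heterozygous ones. F5 and Slc6a4, coagulation factor V and the serotonin transporter, both carried by platelets, stood at 53.7 and 5.34 FPKM (log2 difference -3.11) and 10.8 and 0.526 FPKM (log2 difference -2.95).

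T cell and thymocyte genes were lower as well. Of 18 T cell genes 14 were lower, 11 past 2-fold, and of 14 thymocyte genes all were lower, 12 past 2-fold. The medians were -2.08 and -2.52. Over all genes 58.2% were lower and 17.2% past 2-fold lower. Cd8a, a coreceptor, and Cd3e, of the T cell receptor complex, stood at 21.4 and 1.43 FPKM (log2 difference -3.20) and 34.95 and 4.19 FPKM (log2 difference -2.79). Dntt, which adds bases at antigen receptor joints in immature lymphocytes, stood at 10.9 and 0.198 FPKM (log2 difference -3.31), and Myb, of blood progenitors, at 19.2 and 0.537 FPKM (log2 difference -3.71). Both lists were highest in N1het_TercWT, with means of 6.28 and 6.12, against 3.24 and 3.20 with neither change and 1.72 and 0.92 with both. The order of the 4 groups thus followed neither Notch1 nor telomere label.

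Neutrophil genes were higher but low in amount. Of 18 genes 14 were higher and 11 past 2-fold, beside 40.1% and 7.48% of all genes. None of the 18 was past 2-fold lower (median 1.40). S100a9, the partner of S100a8, stood at 6.41 and 62.9 FPKM (log2 difference 3.11), and Retnlg, a resistin-like protein, at 0.0880 and 6.68 FPKM (log2 difference 2.82). N1WT_TercG2 was far higher, with S100a9 at 648 FPKM and Retnlg at 163 FPKM. Elane and Mpo, granule genes of immature neutrophils, were listed at 0 with both changes, and Elane also with neither. Red cell genes had a median of 0.05, which turned to -0.02 with equal sums over genes that are not mitochondrially encoded. The globin gene Hbb-b1, whose reads may be shared with its copies, stood at 5739.9 and 5935 FPKM (log2 difference 0.05). B cell genes were split evenly, 6 higher and 6 lower.

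**Figure D4:**
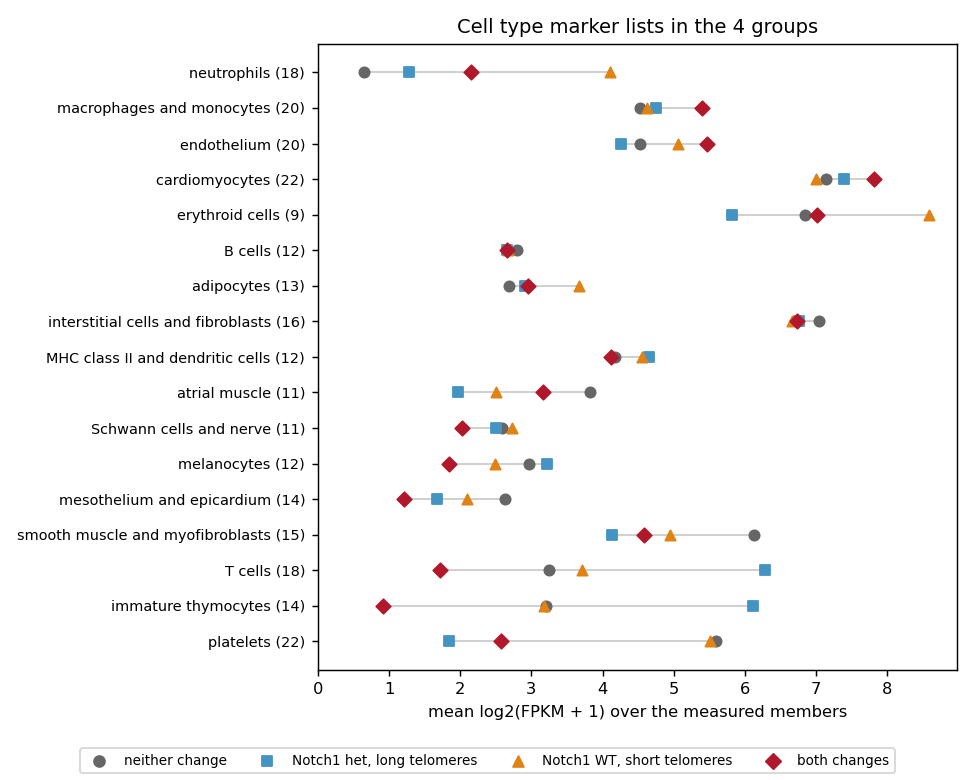
Each row is a list of marker genes, with the mean log2(FPKM + 1) of its measured members in each of the 4 groups. Platelet means are 5.59 with neither change and 2.58 with both, macrophage means 4.52 and 5.39, and T cell and thymocyte means are lowest with both changes.

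Pigment cell genes, present in normal mouse valves, were lower in 11 of 12 (median -1.05), beside 58.2% of all genes. Dct and Tyr, enzymes of melanin synthesis, stood at 94.5 and 11.3 FPKM (log2 difference -2.96) and 9.72 and 1.14 FPKM (log2 difference -2.32). Sox10, a transcription factor of Schwann cells and pigment cells, was past 4-fold lower, at 4.73 and 0.147 FPKM (log2 difference -2.32).

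Circadian clock genes formed the pathway list with the lowest median, -0.99. Of 18 genes 14 were lower and 9 past 2-fold, beside 58.2% and 17.2% of all genes. The members acting in opposite phases differed in opposite directions. Arntl, the activator BMAL1, was higher at 1.72 and 9.93 FPKM (log2 difference 2.01), as was its partner Npas2, at 1.18 and 3.49 FPKM (log2 difference 1.04). The genes they are known to drive were lower, Dbp at 47.1 and 11.6 FPKM (log2 difference -1.93), Per3 at 22.3 and 4.98 FPKM (log2 difference -1.96), Per2 at 23.8 and 9.99 FPKM (log2 difference -1.18) and Nr1d1, the repressor REV-ERB alpha, at 197 and 97.3 FPKM (log2 difference -1.01). In the single-change groups Dbp stood at 13.7 FPKM (N1het_TercWT) and 3.56 FPKM (N1WT_TercG2), and Arntl at 13.4 and 10.3 FPKM. The time of day at which each mouse was killed is not given in the sources used here.

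**Figure D5:**
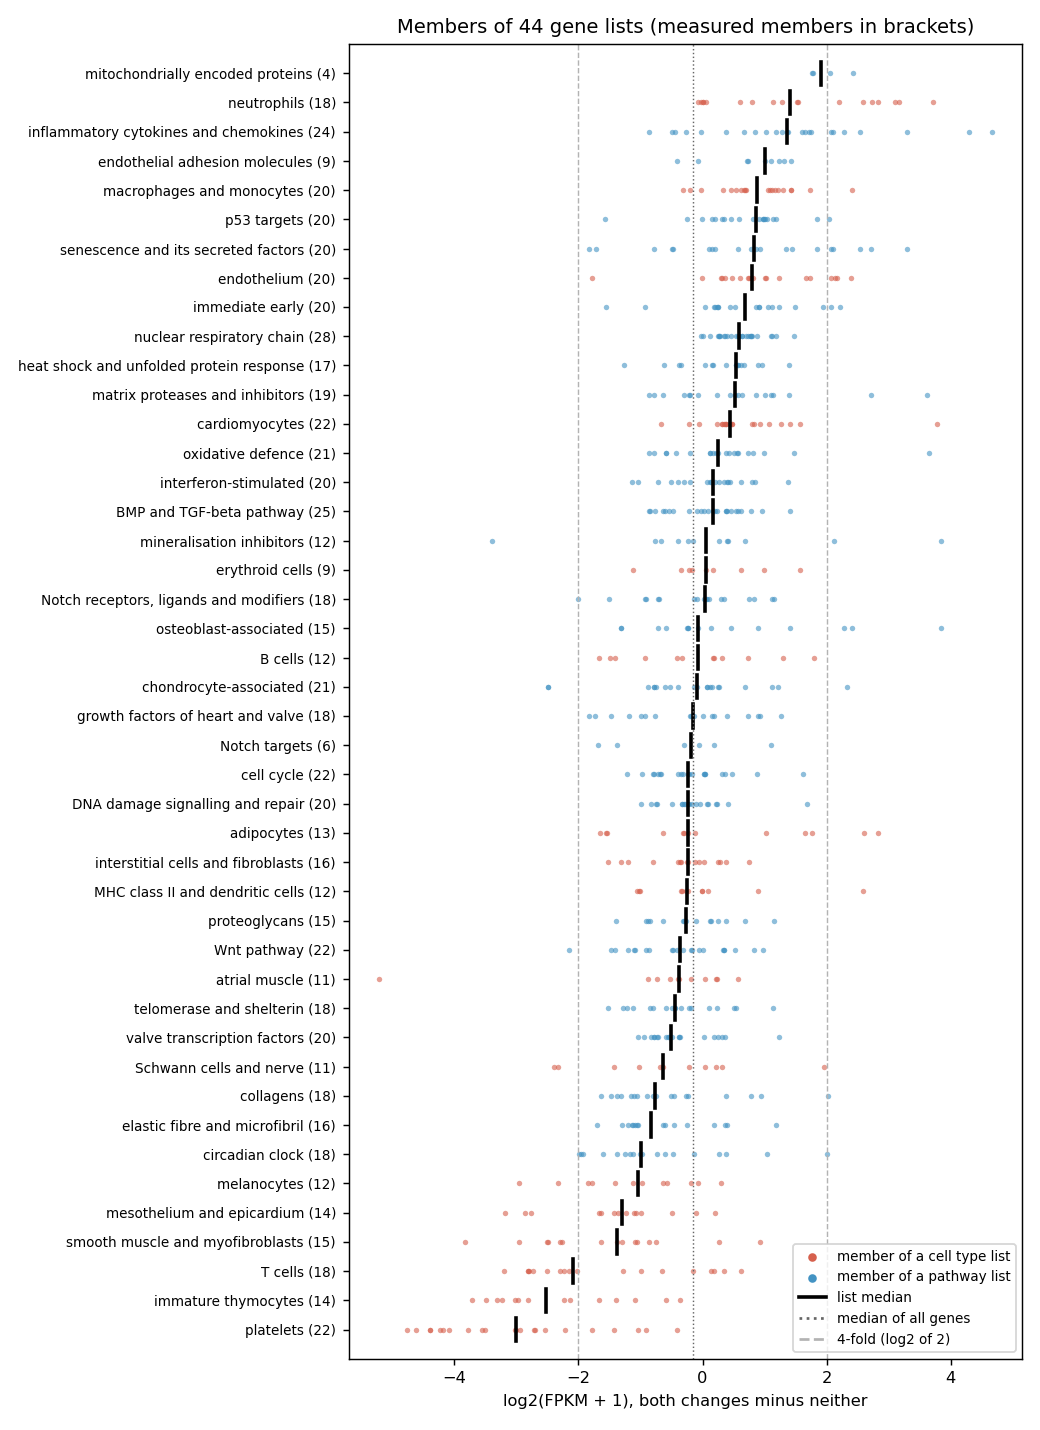
Each row is 1 of 44 gene lists, each point a measured member, by log2(FPKM + 1) with both changes minus neither, and each black bar the list median. The medians run from -3.01 for platelets to 1.92 for the 4 mitochondrially encoded genes, with the dotted line at the median of all genes, -0.16.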

How the data were processed

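RNA-seq libraries were made from amplified leaflet RNA and read as paired ends of 100 bp, with 4 libraries to a lane, per the labels' protocols. The kit does not mark strand, so a gene's reads may include those of an antisense or overlapping gene. The submitters' processing notes list FastQC, TopHat, SAMtools, Picard and build mm9, with no roles. How FPKM was estimated and libraries were pooled is not given in the sources used here. Per the file headers, the table deposited by the authors has 1 FPKM for each gene in each group. The authors' call columns were not used.

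Differences were computed as log2(FPKM + 1), N1het_TercG2 minus N1WT_TercWT, in Python 3.11.15 with numpy 2.4.6, pandas 2.3.3 and matplotlib 3.10.9, and the counting was checked on simulated data. Depth is unknown. No test or leave-one-out value is possible with 1 value per group. A value of 0 can be a failed estimate. Symbols came from the table, or by identifier from GENCODE (16962 of 18073 genes matched, 93.9%), and promoters from RefSeq.

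The comparison and the gene lists were chosen with earlier results of these data known. Genes named were Notch1, Terc, the 12 highest and 12 lowest differences among genes reaching 10 FPKM without predicted or clone names, and in each of 44 lists the first 2 members and the 4 with the largest differences. All members of the Notch, osteoblast, inhibitor and telomere lists could also be described. The leading genes of the text and the plot leave out short RNAs, and further genes named were chosen after their values were seen. A few genes under this rule are not reported here. Alternatives were a pseudocount of 0.1, 2 scalings, minimum FPKM values and leaving out genes.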

Additional observations from a re-analysis of the deposited data

How the results depend on the processing

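No paired analysis was possible because the table holds 1 pooled value per group, and for the same reason no library could be left out. Counts of genes are given as higher and lower with both changes. Past 4-fold they were 267 and 686 as reported, 791 and 2121 with a pseudocount of 0.1, 108 and 186 among genes with a mean of at least 10 FPKM, and 152 and 319 among protein-coding genes, an alternative chosen after seeing the data. Past 2-fold they were 1351 and 3116 as reported, 2148 and 4818 with a pseudocount of 0.1, and 575 and 774 at a mean of at least 10 FPKM. Filters test fewer genes by construction. The share of higher genes among those past 2-fold was 30.2% as reported. It was 42.7% relative to the median of all genes and 42.6% at a mean of at least 10 FPKM, where the median of all genes was 0.01. Rescaling the groups to equal sums over genes that are not mitochondrially encoded moved that median to -0.21. Of 44 lists 3 had a median of 1 or above and 6 a median of -1 or below. Relative to the median of all genes 6 had a median of 1 or above. Without genes of other cell types, of 30 lists left, 1 had a median of -1 or below, that of smooth muscle, an alternative chosen after seeing the data. It takes out the platelet, T cell, thymocyte, mesothelial and pigment cell lists whole, so the smaller number follows by construction. No difference past 4-fold of a named gene, and no list median of at least 1 in size, took the other sign under a pseudocount of 0.1 or either scaling. This follows by construction and is no check. A pseudocount cannot turn the sign of a gene, and both scalings moved differences by far less than 1. Medians near 0 did change sign. Those of the osteoblast, chondrocyte and B cell lists turned to 0.09, 0.07 and 0.08 relative to all genes, and those of the Notch receptor, inhibitor and erythroid lists turned with equal sums, as given in the text. With a pseudocount of 0.1, 65 of 240 named genes moved by at least 0.5, and the platelet and neutrophil medians went to -4.02 and 2.89. The depth of the libraries is unknown, so the precision of low values could not be given.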

Other observations

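Further macrophage genes, chosen after their values were seen, were far higher with both changes. Vsig4, a complement receptor of resident macrophages, stood at 11.2 and 56.6 FPKM (log2 difference 2.25), and Ms4a6d at 2.32 and 24.03 FPKM (log2 difference 2.91). Osm, the cytokine oncostatin M, stood at 0.462 and 11.1 FPKM (log2 difference 3.04), with 9.43 FPKM in N1WT_TercG2. Outside this group Ly6a, the surface protein Sca-1 of progenitors and endothelium, stood at 94.2 and 564 FPKM (log2 difference 2.57), and the stress genes Gadd45b and Gadd45g at 12.4 and 59.8 FPKM (log2 difference 2.19) and 4.66 and 29.5 FPKM (log2 difference 2.43).

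On the lower side, again chosen after their values were seen, Adamts19, a secreted protease whose loss is known to cause heart valve disease, stood at 12.5 and 0.528 FPKM (log2 difference -3.14). Its single-change groups were between, at 3.45 FPKM in N1het_TercWT and 2.70 FPKM in N1WT_TercG2. Gdf7, a BMP family ligand, stood at 20.1 and 1.62 FPKM (log2 difference -3.01), and Meg3, an imprinted long noncoding RNA, at 15.1 and 1.16 FPKM (log2 difference -2.90). For Gdf7 and Meg3, too, both single-change groups were below the reference, Gdf7 at 4.40 and 0.838 FPKM and Meg3 at 3.91 and 4.81 FPKM in the same order.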
